A study of Homo sapiens with 2 samples.

Results

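The clustered histone genes are the 71 of 33538 annotated genes whose symbols begin with HIST1H, HIST2H, HIST3H or HIST4H. They were chosen by symbol alone and comprise 6 genes of the linker histone H1, 17 of H2A, 18 of H2B, 15 of H3 and 15 of H4. Their transcripts were followed in 2 single-cell RNA-seq libraries of H1, an established human embryonic stem cell (hESC) line. Both cultures were grown on growth factor-reduced Matrigel in mTeSR1 and received 50 ng/ml bone morphogenetic protein 4 (BMP4) for 48 h. The WT library came from unmodified H1 cells. The GATA3 KO library came from KO-GATA3-06, a monoclonal GATA3-/- line derived from H1 cells that carry an inducible Cas9 cassette in the AAVS1 locus. A protocol note deposited with the WT library gives an exposure of 1 hour, while its title and recorded duration give 48 h. There was 1 library for each genotype, so genotype, clone, cassette and library preparation cannot be told apart, and no difference between the libraries has a replicate check or a p-value. The 3′ counts of GATA3 do not show whether the coding sequence was disrupted, so they are no check of the labels.

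Core histones H2A, H2B, H3 and H4 form the protein core around which DNA is wrapped, and H1 binds the DNA that links these cores. Most of the histone protein used during DNA replication is made from gene clusters that are transcribed in S phase. Their transcripts generally end in a short RNA hairpin, bound by SLBP, in place of a poly(A) tail. Replication-independent histones such as H2A.Z and H3.3 come from single genes elsewhere, with polyadenylated transcripts. The kit used here primes cDNA from poly(A), so the counts describe the clustered histone transcripts that such priming captured. The share captured was not measured, and a difference in transcript amount cannot be told apart from a difference in capture.

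The libraries held 3802 WT and 6221 GATA3 KO cell barcodes, of which 8 barcode sequences occurred in both. Limits of at most 7500 detected genes and at most 25% mitochondrial unique molecular identifiers (UMIs) kept 2519 WT cells with 99587274 UMIs and 4450 GATA3 KO cells with 175285931 UMIs. Median depth was 44415 and 43131.5 UMIs per kept cell. Levels are counts of UMIs per 1000000 UMIs (CPM), summed over kept cells. Each UMI stands for 1 captured transcript molecule, so levels were not divided by gene length. Intervals are exact 95% intervals for counting error only. Of 4 stem cell markers, POU5F1, L1TD1 and LIN28A stood at 918, 940 and 393 CPM in WT and 1480, 1169 and 550.1 CPM in GATA3 KO, and DPPA4 at 270.4 and 247 CPM, while the neural markers PAX6 and SOX1 were at 0.15 CPM or less in both libraries.

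All 71 members are single-exon protein-coding genes in the canonical GRCh38 annotation. The largest cluster, on chromosome 6, holds 34 of them, with starts, taken as the lower coordinate, between 25723397 and 26277609 bp. Another 5 start between 27125897 and 27147106 bp and 16 between 27807479 and 27893425 bp. Chromosome 1 carries 15 members and chromosome 12 carries HIST4H4. A hairpin pattern of GG, any 3 bases, TTTT, any base, A, any 3 bases and CC was found on the sense strand within 100 bases after the stop codon of 68 of 71 members, against 0.379% of 20046 protein-coding genes. HIST1H3E, HIST1H2BI and HIST1H4L did not have these letters in that window. The hairpins of the most abundant member, of the 2 members with the lowest GATA3 KO over WT ratio among those of at least 2 CPM in mean, of a member that was higher there, and of HIST1H4F, described later, are printed 5′ to 3′ as DNA on GRCh38. Capitals mark the hairpin.
HIST1H4C, chr6:26104312-26104341, plus strand: ccaaaGGCCCTTTTCAGGGCCgctcacaaa
HIST1H4F, chr6:26240773-26240802, plus strand: taaaaGGCCCTTTTCAGGGCCacctccttc
HIST1H1A, chr6:26017028-26017057, minus strand: ccaacGGCTCTTTTAAGAGCCacctacgca
HIST1H2BJ, chr6:27132312-27132341, minus strand: ctaacGGCTCTTTTAAGAGCCacccatgtt
HIST2H2AC, chr1:149887386-149887415, plus strand: ccaaaGGCTCTTTTTAGAGCCacccaagtt
The hairpin letters of both H4 genes are the same.

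HIST1H4C differs from the other members in a stretch of adenines between its stop codon and its hairpin. Windows of 20 bases were read on the sense strand over the coding sequence and the 100 bases after the stop codon. The richest window of HIST1H4C holds 18 adenines and ends 51 bases after the stop codon. No other member exceeds 13 adenines in any window of that length and span. Of protein-coding genes, 9.32% have a window of at least 15 in that span. Transcript ends beyond the span were not searched, so this share does not describe whole transcripts. The window of HIST1H4C is shown beside that of HIST1H1D, the most abundant linker histone gene, with the longest run of adenines in capitals.
HIST1H4C, chr6:26104291-26104310, plus strand: aaaaaacaaaaacAAAAAAA
HIST1H1D, chr6:26234471-26234490, minus strand: gaagaaaagcatcAAAAAga
Whether the adenine stretch bears on the captured level of HIST1H4C was not tested.

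The promoters of the types differed in their motifs. RefSeq promoter sequences on GRCh38, from 250 bases before to 50 after each gene's start, were found for 66 members. The octamer ATTTGCAT, searched on both strands and recognized by POU factors such as OCT1, occurred in 11 of 16 H2A and 14 of 18 H2B promoters, in 1 of 13 H3 promoters and in none of the 6 H1 or 13 H4 promoters. It occurred in 1.77% of 35116 promoters. The 1 H3 promoter, of HIST1H3D, holds the same site as that of HIST1H2AD, at chr6:26199394-26199423. The HIST1H3D gene is annotated here from 26196784 to 26197286 bp. Some neighbouring H2A and H2B genes, such as HIST1H2AG and HIST1H2BJ, also share 1 site that was counted for both. The H1 box AAACACA was present in all 6 H1 promoters, against 5.64% of all promoters. Octamer sites of a pair of H2B genes whose captured level differed to unlike degrees between the libraries are shown with the octamer in capitals.
HIST1H2BH, chr6:26251554-26251583, plus strand: attaagcacctATTTGCATaaaagacctac
HIST1H2BJ, chr6:27132824-27132853, minus strand: ctcttcaccttATTTGCATaagcgattcta
The octamer starts 49 bases before the annotated start in HIST1H2BH and 47 bases before it in HIST1H2BJ.

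Together the 71 genes supplied 1067.98 CPM (95% interval 1061.57-1074.42) in WT and 1338.68 CPM (1333.27-1344.11) in GATA3 KO. The summed level was thus 1.25-fold higher in GATA3 KO, a log2 ratio of 0.33 (0.32-0.34). A single gene, HIST1H4C, gave 74.1% of these UMIs in WT and 86.1% in GATA3 KO. Without it the direction turned: the remaining 70 genes summed to 276 CPM (273-280) in WT and 186 CPM (184-188) in GATA3 KO, a log2 ratio of -0.57 (-0.60 to -0.55). The other 14 H4 genes stood at 29.3 CPM in WT and 16.4 CPM in GATA3 KO. Of the remaining types, H1 had a summed level of 111 CPM in WT and 80.2 CPM in GATA3 KO, H2A of 67.0 and 46.0 CPM, H2B of 44.6 and 28.3 CPM, and H3 of 24.8 and 14.7 CPM. All 4 of these types were lower in GATA3 KO, by log2 ratios of -0.46, -0.54, -0.65 and -0.75.

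Of the 71 members, 27 had a mean level of at least 2 CPM over the libraries. Among these, 16 were at least 1.5-fold lower in GATA3 KO, where 9.26% of 11749 genes of that level were, and 2 were at least 1.5-fold higher, where 16.7% of genes were. The median log2 ratio of the 27 was -0.75, beside 0.08 for the 11749 genes. Intervals lay below 0 for 21 of the 27, above 0 for 5 and across 0 for HIST1H1B. These intervals cover counting error only. The same counts over all genes are not given, so the interval counts do not single out histone genes.

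**Figure D1:**
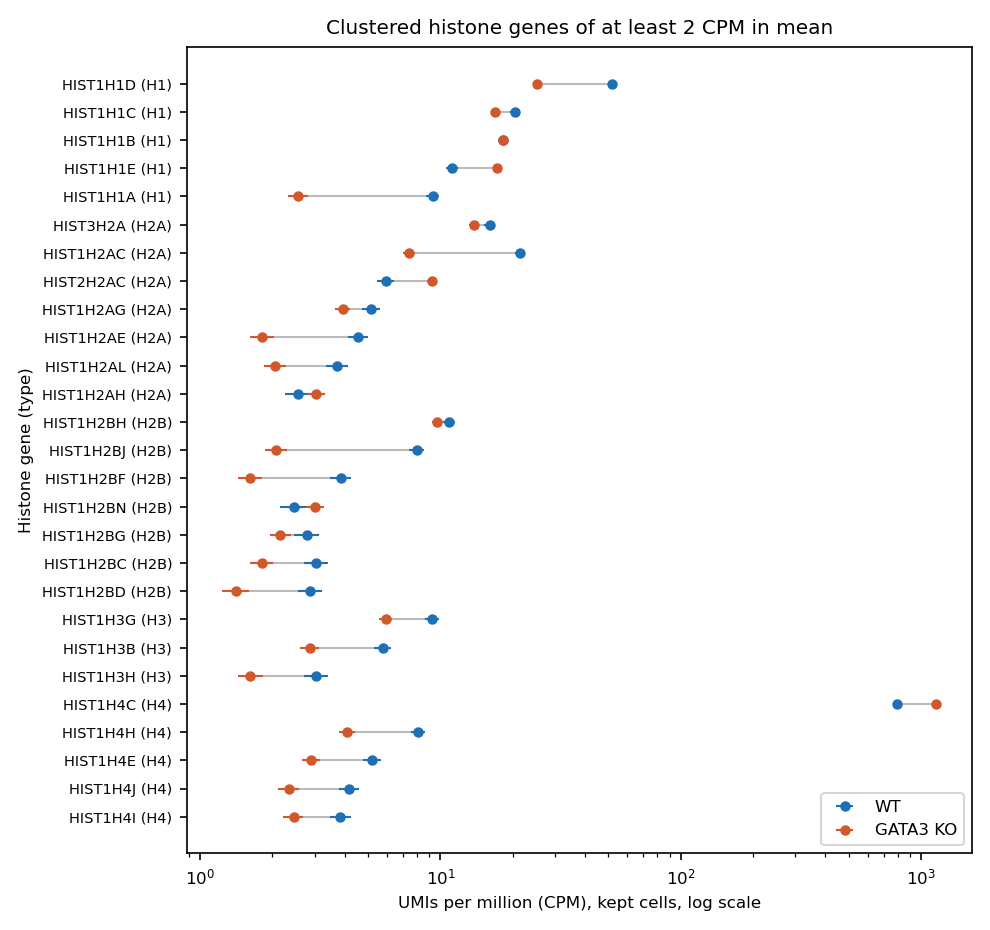
Level of each of the 27 clustered histone genes of at least 2 CPM in mean, in CPM on a log axis, in the WT (blue) and GATA3 KO (orange) library, with exact 95% Poisson intervals. HIST1H4C lies far to the right at 792 and 1153 CPM, and most of the other genes have the orange point to the left of the blue one.

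Among the linker histone genes, HIST1H1D was the most abundant at 51.5 CPM (50.1-53.0) in WT and 25.2 CPM (24.4-25.9) in GATA3 KO, 2.05-fold lower. HIST1H1A was at 9.28 CPM (8.69-9.90) in WT and 2.56 CPM (2.33-2.81) in GATA3 KO, 3.62-fold lower. HIST1H1E went the other way, with 11.2 CPM (10.5-11.8) in WT and 17.2 CPM (16.6-17.8) in GATA3 KO, 1.54-fold higher. HIST1H1C stood at 20.3 and 16.9 CPM, and HIST1H1B at 18.3 and 18.2 CPM, the one gene of the 27 whose libraries could not be told apart within counting error. The make-up of captured H1 transcripts therefore differed between the libraries: HIST1H1D gave 46.6% of H1 UMIs in WT and 31.4% in GATA3 KO, and HIST1H1E gave 10.1% and 21.5%.

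HIST1H2AC had the highest H2A level in WT, at 21.4 CPM (20.5-22.3), and stood at 7.40 CPM (7.002-7.81) in GATA3 KO, 2.89-fold lower. HIST3H2A, the most abundant H2A gene by the mean of the libraries, was at 16.02 CPM in WT and 13.7 CPM in GATA3 KO, and was the leading H2A gene in GATA3 KO. HIST2H2AC was 1.56-fold higher in GATA3 KO, at 5.92 CPM (5.46-6.42) in WT and 9.24 CPM (8.79-9.70). It is the 1 member of the first chromosome 1 cluster above the level limit. HIST1H2AC and HIST2H2AC thus differed in opposite directions.

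HIST1H2BJ had the lowest ratio of the 27 genes, with 7.97 CPM (7.43-8.55) in WT and 2.07 CPM (1.86-2.30) in GATA3 KO, a 3.85-fold lower level. HIST1H2BH, of the same type and with the same octamer, was nearly level at 10.9 CPM (10.2-11.5) and 9.69 CPM (9.24-10.2). The H3 genes HIST1H3G and HIST1H3B were 1.56-fold and 2.02-fold lower in GATA3 KO, at 9.25 and 5.76 CPM in WT. No H3 gene of the 3 above the level limit was higher in GATA3 KO.

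HIST1H4C reached 792 CPM (786-797) in WT and 1153 CPM (1148-1158) in GATA3 KO, 1.46-fold higher and so just under the limit of 1.5. It was detected in 92.6% of WT and 94.4% of GATA3 KO kept cells. HIST1H4H, the next most abundant H4 gene, was at 8.08 CPM in WT and 4.09 CPM in GATA3 KO, 1.98-fold lower. HIST1H4E, HIST1H4J and HIST1H4I were also more than 1.5-fold lower in GATA3 KO, with log2 ratios of -0.84, -0.83 and -0.65. HIST1H4C was thus the only H4 gene above the level limit that was higher in GATA3 KO.

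HIST1H4F, singled out after its values were seen, was present in WT and not detected in GATA3 KO. It had 159 UMIs in kept WT cells, 1.60 CPM (1.36-1.86), and 0 UMIs in kept GATA3 KO cells. Against a floor of 3 UMIs, which is 0.0171 CPM in the GATA3 KO library, it was at least 93.3-fold lower. Over all deposited cells, 222 of 3802 WT cells (5.84%) carried it, and 0 of 6221 GATA3 KO cells did, which allows a share of up to 0.0482% of cells with a UMI and sets no limit on cells that express the gene. In WT it was detected in all 5 S-phase ranges defined in the next part, from 0.613 CPM in the lowest to 2.61 CPM in the highest. Only 5 genes in the whole table had at least 1 CPM in WT and 0 UMIs in GATA3 KO, namely HIST1H4F, ZNF717, ZNF736, C17orf51 and PEG3, and 0 genes had the reverse. HIST1H4B, another low H4 gene, was at 1.06 CPM in WT and 0.205 CPM in GATA3 KO.

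The other 44 members lay below the level limit. Of the 27 among them with at least 10 UMIs in each library, 24 had a lower level in GATA3 KO. The share of all genes by that rule is not given, so this count does not single out histone genes. HIST2H4B was an exception at 0.86 CPM in WT and 1.47 CPM in GATA3 KO. HIST3H3, HIST1H3D, HIST1H4G and HIST1H4K had 0 UMIs in both libraries, and 10 members had at most 3 UMIs in each. Reads that match several genes equally are not counted by Cell Ranger, so members with near-identical copies are uncertain. Over 90% of the 90-base stretches of 8 members occur in another member, and only HIST1H4J among them passed the level limit.

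The lower levels were seen across the chromosome 6 clusters. In the first, 11 of 16 genes above the level limit were at least 1.5-fold lower in GATA3 KO and 1 was higher, with ratios from -1.86 to 0.63 on the log2 scale. In the second it was 2 of 4, and in the third 3 of 5. TRIM38 was the only other gene above the limit that starts inside the first cluster, with a log2 ratio of -0.44. Of the 17 members with a transcript annotated at least 100 bases past the canonical end, 8 passed the limit, and their median log2 ratio was -0.94, beside -0.64 for the 19 without one. Those with longer ends had a lower median S-phase ratio, described next, of 1.29 against 1.82 in WT and 0.86 against 1.21 in GATA3 KO.

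To relate histone transcripts to S phase, the 6211 kept cells of at least 10000 UMIs were divided into 5 equal ranges by the share of their UMIs that fell on 39 S-phase genes, none of them a histone gene. These are ranges of a score and not phases, and 1330 cells lay within 5% of the lowest or highest cut. Median depth across the ranges was 45816 to 50625 UMIs per cell in WT and 42412 to 49803.5 in GATA3 KO. PCNA, the sliding clamp of DNA polymerases and a member of the list, went from 83.9 to 187 CPM in WT and from 91.7 to 219 CPM in GATA3 KO. CCNE2, a cyclin of the G1/S transition and also on the list, went from 2.1 to 8.0 CPM and from 1.1 to 5.9 CPM.

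The summed histone level was higher in each successive range in both libraries. In WT it was 614, 893, 1264, 1445 and 1569 CPM from the lowest to the highest range, a log2 ratio of top to bottom of 1.35 (1.32-1.38). In GATA3 KO it was 997, 1091, 1329, 1498 and 1690 CPM, a ratio of 0.76 (0.74-0.78). The bottom range therefore differed most between the libraries, with a GATA3 KO over WT ratio of 0.70 there, 0.29 in the next range and 0.05 to 0.11 in the upper 3 ranges. Ranking cells by PCNA and CCNE2 alone gave smaller log2 ratios of 0.67 in WT and 0.08 in GATA3 KO. Across single cells, the summed histone share had a Spearman correlation of 0.41 with the S-phase list in WT (2173 cells) and 0.25 in GATA3 KO (4038 cells), values that share each cell's depth and total. With the summed share of PCNA and CCNE2 alone the correlation was 0.13 in WT and -0.01 in GATA3 KO.

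**Figure D2:**
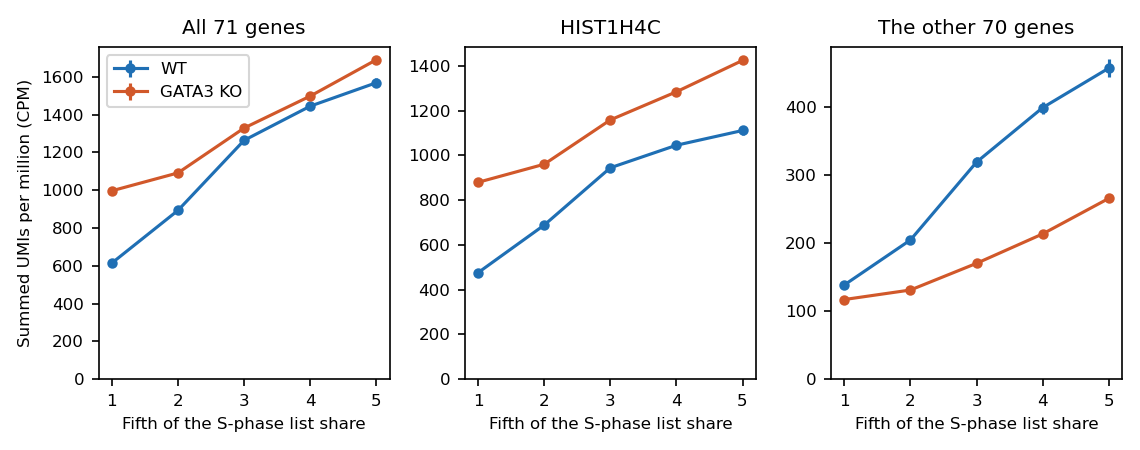
Summed level in CPM of all 71 clustered histone genes, of HIST1H4C and of the other 70 genes (y axes from 0) in 5 ranges of the S-phase list share (x axis, lowest to highest), in the WT (blue) and GATA3 KO (orange) library, with exact 95% Poisson intervals that are mostly smaller than the points. HIST1H4C lies higher in GATA3 KO in every range, and the other 70 genes lie lower.

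HIST1H4C and the other 70 genes behaved differently against this background. HIST1H4C was higher in GATA3 KO in every range, at 476 against 880 CPM in the lowest and 1111 against 1424 CPM in the highest. The other 70 genes were lower in GATA3 KO in every range, at 138 (134-143) against 117 CPM (113-121) in the lowest and 457 (444-471) against 266 CPM (261-271) in the highest. Their GATA3 KO over WT log2 ratio was -0.24 in the lowest range and between -0.64 and -0.91 in the upper 4. Of the 27 genes above the level limit, 18 were lower in GATA3 KO in all 5 ranges and 4 were higher in all 5, namely HIST1H4C, HIST1H1E, HIST2H2AC and HIST1H2BN. A count of all genes by the same rule is not given, so these counts do not single out histone genes. GATA3 KO had more cells in the highest range, 24.9% against 10.9%, and fewer in the lowest, 15.9% against 27.6%. With the 5 ranges weighted equally, the log2 ratio was 0.19 for the sum of all members.

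Nearly all members followed the S-phase score. Of the 27, 24 were at least 1.5-fold higher in the top than in the bottom range in WT, where 6.31% of genes were, and 24 were in GATA3 KO, where 4.32% of genes were. The overlap was 23 genes, and 0 of the 27 were 1.5-fold lower, where 5.23% of genes were in WT and 3.75% in GATA3 KO. HIST1H1A had the steepest profile, from 2.45 to 21.1 CPM in WT and from 0.77 to 5.59 CPM in GATA3 KO, log2 ratios of 3.10 (2.71-3.52) and 2.86 (2.23-3.57). HIST1H1D went from 13.9 to 101 CPM in WT and from 7.55 to 46.4 CPM in GATA3 KO, and HIST1H2BF from 0.97 to 7.35 CPM and from 0.52 to 3.09 CPM. These genes had more than 5-fold differences between the ends of the score in both libraries.

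The flattest profiles were those of H2B genes. HIST1H2BH was at 9.26 and 12.2 CPM in the bottom and top ranges of WT and at 8.57 and 11.2 CPM in those of GATA3 KO, log2 ratios of 0.40 (0.08-0.71) and 0.39 (0.16-0.62). HIST1H2BJ had ratios of 0.45 and 0.40, the latter with an interval that reached below 0 (-0.13 to 0.94), and HIST1H2BN of 0.58 and 0.60. The 2 H2B genes with octamers printed above were thus alike in their S-phase ratios and unlike in their GATA3 KO over WT ratios. HIST1H4C, at 1.22 (1.19-1.26) and 0.70 (0.67-0.72), lay below the median of the 27 in both libraries, which was 1.74 in WT and 0.94 in GATA3 KO.

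The ratio was larger in WT than in GATA3 KO for 24 of the 27 genes. For 7 genes the intervals of the libraries did not overlap, namely HIST1H4C, HIST1H4E, HIST1H1B, HIST1H1E, HIST2H2AC, HIST1H2AH and HIST1H2BC. In each of these the WT ratio was the larger one. The same counts over all genes are not given, so these counts do not single out histone genes. Shares of all genes past 1.5-fold were also larger in WT, at 6.31% against 4.32% higher and 5.23% against 3.75% lower.

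**Figure D3:**
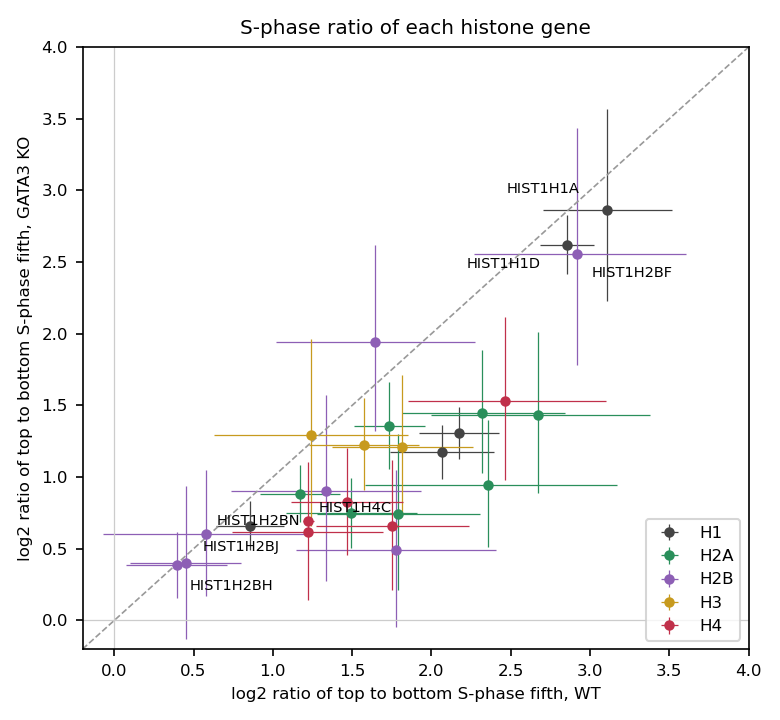
The log2 ratio of the top to the bottom S-phase range for each of 27 histone genes in WT (x axis) and GATA3 KO (y axis), coloured by type, with exact 95% binomial intervals and a dashed line of equal ratios. Most genes lie to the right of the line, HIST1H1A, HIST1H1D and HIST1H2BF lie at the upper end, and HIST1H2BH, HIST1H2BJ and HIST1H2BN at the lower end.

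Histone levels went against the score of 52 G2/M genes. Cells were split at the pooled medians of both scores into 4 ranges, with 1443 cells within 5% of a median. With S-phase genes high and G2/M genes low, the summed histone level was 1528 CPM in WT and 1732 CPM in GATA3 KO. With S-phase genes low and G2/M genes high it was 676 and 1013 CPM. Where both scores were low the level was 1139 and 1468 CPM, and where both were high it was lower, at 1079 and 1202 CPM. The other 70 genes had 423, 150, 285 and 288 CPM in these ranges of WT and 253, 120.5, 186 and 184 CPM in those of GATA3 KO.

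Individual cells spread widely. In WT the summed share ran from 309 CPM at the first quartile over a median of 656 CPM to 1603 CPM at the upper quartile. In GATA3 KO these values were 468, 1058 and 1872 CPM. More than 1000 CPM was found in 43.0% of 2173 WT cells and 54.6% of 4038 GATA3 KO cells of at least 10000 UMIs. Cells of that depth without any histone UMI numbered 6 in WT and 3 in GATA3 KO. HIST1H4C and the summed other members correlated across these cells, with Spearman correlations of 0.74 in WT and 0.66 in GATA3 KO, and both shares have the same cell total as denominator.

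**Figure D4:**
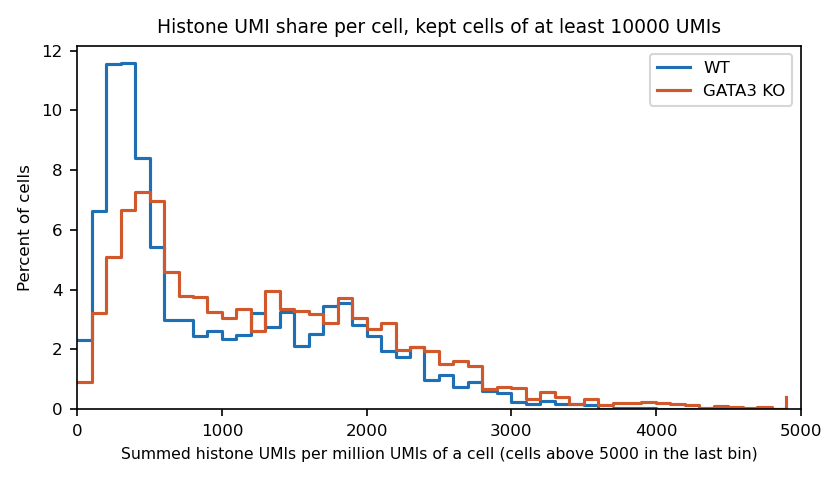
Percent of kept cells of at least 10000 UMIs (y axis) by the summed share of the 71 histone genes in CPM (x axis, bins of 100, cells above 5000 in the last bin) in WT (blue, 2173 cells) and GATA3 KO (orange, 4038 cells). Both curves have a peak under 600 and a broad shoulder up to about 3000, and the low peak is taller in WT.

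Markers of several fates were detected in both libraries, and cells were also grouped by them, on UMIs thinned to 10000 per cell. Of the markers themselves, all 3 streak genes were lower in GATA3 KO, MIXL1 at 136 CPM in WT and 3.999 CPM in GATA3 KO, and SOX2 was at 150 and 389 CPM. Of the 3 extraembryonic genes, TFAP2A was at 16.7 and 37.7 CPM, HAND1 at 11.4 and 12.6 CPM and ISL1 at 4.65 and 2.72 CPM. SOX17, an endoderm marker, was at 10.6 and 0.16 CPM. The streak group had at least 2 UMIs of MIXL1, EOMES and TBXT, genes of the primitive streak. The extraembryonic group had at least 2 of HAND1, ISL1 and TFAP2A, and the SOX2 group had neither but at least 2 of the pluripotency factor SOX2. These names are labels of marker sets, and the paper counts HAND1 as a mesoderm gene and ISL1 as a lateral mesoderm gene. Whether a group holds the same kinds of cells in both libraries was not tested. WT held 664 streak, 96 extraembryonic, 729 SOX2 and 659 unmarked cells, and GATA3 KO held 63, 398, 2988 and 578. Another 25 WT and 11 GATA3 KO cells carried both kinds of marker.

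The summed histone level differed little between these groups. In WT it was 1038 CPM in SOX2, 1063 CPM in streak, 1046 CPM in extraembryonic and 1113 CPM in unmarked cells. In GATA3 KO it was 1311, 1332, 1521 and 1385 CPM, with the extraembryonic group above the SOX2 group by a log2 ratio of 0.21 (0.20-0.23). Streak cells were above SOX2 cells by log2 ratios of 0.03 in WT and 0.02 in GATA3 KO. The WT extraembryonic group was level with the SOX2 group at 0.01 (-0.04 to 0.06), but 0.39 above it when cells over 7500 detected genes were left in. By the median cell, the extraembryonic group was below the SOX2 group in both libraries. It stood at 520 against 715 CPM in WT and 1041 against 1156 CPM in GATA3 KO. Upper quartiles were 1173 against 1571 CPM in WT and 2131 against 1882 CPM in GATA3 KO. Within each of these 4 groups the GATA3 KO sum was above the WT sum, by log2 ratios of 0.32 to 0.54. Without HIST1H4C the direction turned, with log2 ratios of -0.49 in SOX2, -0.68 in streak and -0.59 in unmarked cells. In extraembryonic cells the ratio without HIST1H4C was -0.10 (-0.21 to 0.01).

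Single members were also compared between streak and SOX2 cells. In WT, 3 of the 27 genes were at least 1.5-fold higher and 0 lower, where 6.02% and 8.95% of genes were. In GATA3 KO, 2 were higher and 5 lower, where 6.64% and 11.9% of genes were.

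The same comparison was made between extraembryonic and SOX2 cells. Of the 27 genes, 14 were at least 1.5-fold lower there than in SOX2 cells in WT, where 25% of genes were, and 5 were in GATA3 KO, where 14.7% of genes were. In WT 0 were at least 1.5-fold higher, where 10.2% of genes were, and in GATA3 KO 2 were, where 8.93% of genes were. The GATA3 KO counts were near the shares of all genes. HIST1H1A had the largest difference in GATA3 KO and a large one in WT. It was at 11.7 CPM in SOX2 and 2.07 CPM (0.89-4.08) in extraembryonic cells of WT. In GATA3 KO it was at 2.88 and 0.28 CPM (0.09-0.66). The extraembryonic values of HIST1H1A rest on 8 UMIs in WT and 5 in GATA3 KO. HIST1H2BJ was at 5.86 CPM in SOX2, 11.6 CPM in streak and 2.07 CPM in extraembryonic cells of WT, and at 2.13, 2.75 and 1.30 CPM in those of GATA3 KO. In WT extraembryonic cells HIST1H2BJ had 8 UMIs, HIST1H2BG 2 and HIST1H2BN 1. HIST1H1B and HIST2H2AC went the other way, at 17.1 and 6.08 CPM in SOX2 cells and 24.6 and 8.01 CPM in extraembryonic cells of WT. The S-phase list stood at 2422 CPM in SOX2 and 2007 CPM in extraembryonic cells of WT, and at 2627 and 2453 CPM in those of GATA3 KO, and its part in these differences was not tested.

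**Figure D5:**
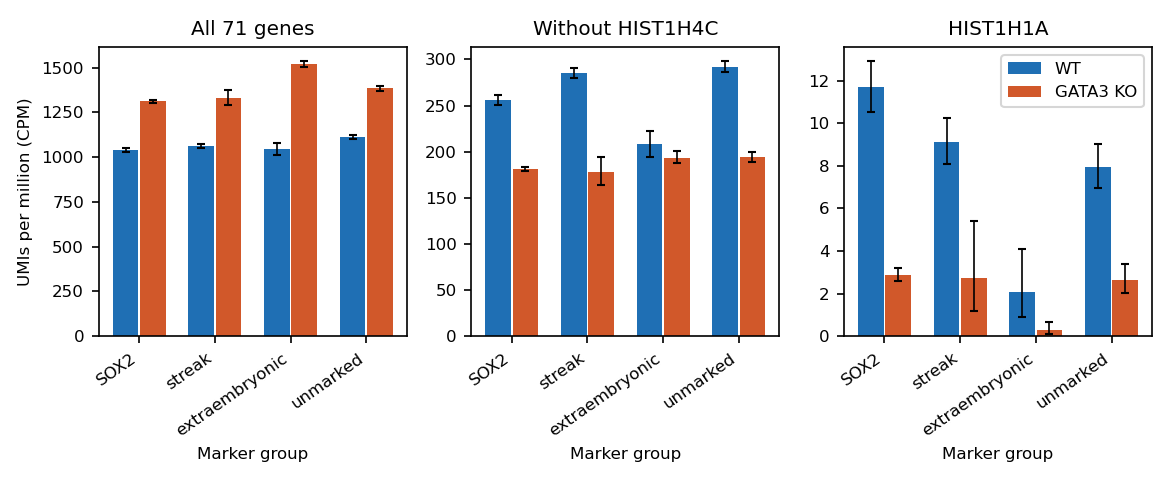
Level in CPM (y axes from 0) of all 71 histone genes, of the 70 without HIST1H4C and of HIST1H1A in 4 marker groups (x axis) of the WT (blue) and GATA3 KO (orange) library, with exact 95% Poisson intervals. The total varies little between groups within a library, while HIST1H1A is lowest in the extraembryonic group of both.

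Genes that process and handle histones were compared in the same way. Of 10 factors of histone transcription and 3′ end formation, 0 differed by 1.5-fold or more, where 16.7% of all genes were higher and 9.26% lower. No test was possible. SLBP, the hairpin-binding protein, was at 84.1 CPM in WT and 72.3 CPM in GATA3 KO, and NPAT, the coactivator of the clusters, at 10.5 and 13.1 CPM. SLBP was higher in extraembryonic than in SOX2 cells in both libraries, at 140 against 76.9 CPM in WT and 122 against 63.2 CPM in GATA3 KO. Of 8 histone chaperones, 3 were at least 1.5-fold higher in GATA3 KO and 0 lower, where 16.7% of all 11749 genes were higher and 9.26% lower. NASP, which carries H1 and H3-H4, was at 655 CPM in WT and 1137 CPM in GATA3 KO. ASF1B, an H3-H4 chaperone linked to replication, was at 16.1 and 29.4 CPM, and DAXX, a chaperone of H3.3, at 41.8 and 67.8 CPM.

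Of 11 genes listed as replication-independent histones, 1 was at least 1.5-fold higher and 2 lower in GATA3 KO, where 16.7% and 9.26% of all genes were. How the transcripts of each listed gene end was not examined. H2AFX, whose protein is phosphorylated at DNA breaks, was at 59.6 CPM in WT and 99.6 CPM in GATA3 KO. H2AFY2, a macroH2A gene, was at 53.1 and 30.8 CPM, and CENPA, the centromeric H3, at 40.3 and 24.0 CPM. H2AFZ and H3F3A, the most abundant of the list, were at 2650 and 3349 CPM in WT and 1935 and 3104 CPM in GATA3 KO. None of the 11 was 1.5-fold higher in the top S-phase range, where 6.31% of all genes were in WT and 4.32% in GATA3 KO. In each library 1 of the 11 was at least 1.5-fold lower, where 5.23% and 3.75% of all genes were. Median S-phase log2 ratios of the 11 were 0.11 and 0.01, beside 1.74 and 0.94 for the 27 clustered genes.

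The cell cycle lists themselves were also compared between the libraries. Of 38 S-phase genes above the level limit, 0 were at least 1.5-fold higher in GATA3 KO and 1 was lower, where 16.7% of all 11749 genes were higher and 9.26% lower. The lower gene was CCNE2, at 5.93 CPM in WT and 3.42 CPM in GATA3 KO. PCNA was at 135 and 156 CPM. Of 52 G2/M genes, 9 were at least 1.5-fold higher and 3 lower, where 16.7% and 9.26% of all genes were. MKI67 was at 60.6 and 106 CPM and CENPF at 225 and 350 CPM, and the 3 lower genes were HMGB2, CDK1 and LBR.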

How the data were processed

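Single-cell libraries were made with the 10x Chromium 3′ v3 kit and sequenced on a HiSeq 4000. The authors aligned reads to the human GRCh38 reference with Cell Ranger 3.0.2, and the deposited matrices hold raw UMI counts per gene and cell barcode, 1 library per genotype, without limits on genes or mitochondrial share.

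Cells with more than 7500 detected genes or over 25% mitochondrial UMIs were removed, as in the study. Counts were summed over kept cells and divided by the library total to give CPM. Ratios are plain ratios of CPM without a pseudocount, with exact binomial 95% intervals, and levels have exact Poisson 95% intervals. No gene-wise test was run because no genotype has a replicate. Genes of at least 2 CPM in mean were compared, and 1.5-fold was used as a limit of size. S-phase ranges and marker groups used kept cells of at least 10000 UMIs, and markers were counted after thinning each cell to 10000 UMIs. Scrublet, run through scanpy 1.11.5, called 1 WT and 2 GATA3 KO cells as doublets and so did not work here. As an alternative the 116 and 310 cells with the highest scores were left out. TMM factors came from edgeR 4.0.16 and size factors from DESeq2 1.42.0. The calculation of the ratio and its interval was run on simulated counts with known folds and counting error only. Spread between cells or cultures was not simulated, so this run does not show that the intervals cover such spread. Hairpins and adenine windows were read from GRCh38 with the GENCODE annotation, promoters from RefSeq. Of the 71 members, 66 were placed by gene ID and 5 by an older symbol.

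Among members of at least 2 CPM, those named are the 2 most abundant of each type, the 3 highest and 3 lowest in the GATA3 KO over WT ratio and in the S-phase ratio, with PCNA, CCNE2 and members of the cell cycle, chaperone, histone and marker lists past 1.5-fold. Others were named after their values were seen. Members and lists were chosen with earlier results of these data known.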

Additional observations from a re-analysis of the deposited data

Results flagged for a closer look

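For 2 summed levels the contrast between marker groups had opposite directions in the libraries, with intervals that excluded 0 in both. The difference between the libraries was not tested, and 32 such contrasts were compared. The summed level of the 70 members without HIST1H4C was lower in extraembryonic than in SOX2 cells in WT, at 208 against 256 CPM, a log2 ratio of -0.298 (-0.40 to -0.19). In GATA3 KO it was higher, at 194 against 181 CPM, a log2 ratio of 0.0944 (0.04 to 0.15). The WT group held 96 cells and the GATA3 KO group 398. The summed level of the 6 H1 genes was slightly higher in streak than in SOX2 cells in WT, at 110 against 103 CPM, a log2 ratio of 0.0937 (0.02 to 0.16). In GATA3 KO it was lower, at 67.4 against 77.9 CPM, a log2 ratio of -0.209 (-0.42 to -0.01), and the streak group there held 63 cells.

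Cells left out for more than 7500 detected genes also carried histone transcripts. Their summed level was 930 CPM in 1012 WT cells and 1282.79 CPM in 1265 GATA3 KO cells, the latter above the former as in kept cells. Cells over 25% mitochondrial UMIs had lower sums, 494 CPM in 271 WT cells and 492 CPM in 506 GATA3 KO cells.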

How the results depend on the processing

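No paired analysis was possible because each genotype has 1 library. Values are log2 ratios unless given as counts, and the cause of each shift was not tested. For the summed histone level in GATA3 KO over WT (0.33), all deposited cells gave 0.392, no upper limit on detected genes 0.399, TMM 0.312, DESeq2 size factors 0.305, equally weighted S-phase ranges 0.191 and comparison with genes of similar GC content (10 classes) 0.0864. Leaving out HIST1H4C reversed it to -0.574, and H4 (0.51) to -0.836. The 2 members at least 1.5-fold higher in GATA3 KO became 0 with a pseudocount of 1 CPM and 5 without the level limit. The 16 lower members became 39 of 64 without that limit, where 20.7% of all genes were as much lower, and stayed between 13 and 16 under the other settings. The S-phase ratio (1.35 in WT, 0.76 in GATA3 KO) was 1.26 and 0.711 in all deposited cells, 1.26 and 0.701 with no upper gene limit, 1.72 and 1.18 without HIST1H4C, 0.670 and 0.0848 by PCNA and CCNE2, and 1.10 and 0.657 in 3 ranges. The mean of per-cell CPM gave 0.715 in GATA3 KO. Streak over SOX2 cells in WT (0.03) gave 0.0608 as a mean of per-cell CPM, 0.159 without HIST1H4C, 0.0868 at a marker minimum of 3 UMIs and 0.121 with equally weighted S-phase ranges. In GATA3 KO (0.02) it was -0.0888 in all deposited cells, -0.0951 with no upper gene limit, -0.0234 without HIST1H4C and 0.0909 at the higher minimum. Extraembryonic over SOX2 cells in WT (0.01) gave 0.386 in all deposited cells, 0.394 with no upper gene limit, -0.0549 as a mean of per-cell CPM, -0.298 without HIST1H4C, 0.112 at the higher minimum and 0.117 with equally weighted ranges. In GATA3 KO (0.21) it was 0.0944 without HIST1H4C and 0.297 with equally weighted ranges. H1, H2A, H2B and H3 stayed lower in GATA3 KO under all 10 alternatives run for each, and HIST1H4C stayed higher, between 0.312 and 0.583. Depth limits the members under 2 CPM, the WT extraembryonic group of 96 cells and the GATA3 KO streak group of 63 cells.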

Other observations

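Genes outside the 71 members also varied with a cell's histone share. Cells were divided into 5 equal ranges of the summed histone share, and 5142 other genes of at least 20 CPM were compared between the top and bottom ranges. In both libraries alike, 9 of them (0.175%) were at least 1.5-fold higher in the top range and 40 (0.778%) were at least 1.5-fold lower. H1F0, the replication-independent linker histone, had the largest ratio, at 19.9 and 62.9 CPM in the bottom and top ranges of WT and 20.2 and 72.9 CPM in those of GATA3 KO. Among the others of the 9 were PHLDA3, BBC3 and MDM2, with PHLDA3 at 10.6 and 27.0 CPM in WT and 27.6 and 57.1 CPM in GATA3 KO. MDM2 was at 31.1 and 69.3 CPM in WT and at 32.4 and 60.1 CPM in GATA3 KO. The long noncoding RNA NEAT1 was at 47.6 and 119 CPM in WT and at 34.1 and 65.2 CPM in GATA3 KO.

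Lower in histone-rich cells were genes of mitosis. PLK1, a mitotic kinase, was at 50.1 and 14.3 CPM in WT and at 90.6 and 37.3 CPM in GATA3 KO. CDC20, an activator of the anaphase-promoting complex, was at 100.3 and 37.3 CPM in WT and at 169 and 60.8 CPM in GATA3 KO. Of 48 G2/M genes of that level, 17 were at least 1.5-fold lower in both libraries, and 0 of 31 S-phase genes were 1.5-fold higher in both. These genes were picked by their ratios, so the values are a description.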
